A study of Mus musculus with 12 samples.

Results

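The anxious and less anxious amygdala libraries of 7 mice were compared across all genes and across lists of pathway and cell type genes. They are 7 of the 12 amygdala libraries in the series. The 4 anxious mice are mice 1, 4, 8 and 11, and the 3 less anxious mice are mice 3, 7 and 12, as the sample labels state. All were female C57/BL6 mice, an inbred strain without a transgene or drug treatment, bought as young adults and age-matched by the methods. Each was tested in the elevated plus maze (EPM), a light/dark box (LD) and a social interaction test (SIT) with a stranger mouse before rapid decapitation and dissection of both amygdalae, and each gave 1 library. The remaining libraries were 4 of more anxious mice and that of mouse 5, which has no group and was left out. The 4 more anxious mice entered the fit, where they helped to estimate the spread between mice and the effect of the covariate.

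The amygdala joins cortex-like basolateral nuclei, rich in glutamatergic projection neurons, to striatum-like central nuclei, rich in GABAergic neurons that carry neuropeptides. It assigns threat value to cues and drives avoidance, arousal and stress hormone output. Neighboring striatum, hippocampus, choroid plexus and white matter lie close to the dissected block, so the marker genes of those tissues were followed beside the amygdala's own.

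The study formed the 3 groups from tertiles of the second principal component (PC2) of these same expression data. The p-values below are therefore no independent evidence that the groups differ. A principal component analysis of 34511 genes was computed anew here, and its PC2 scores are not those from which the study formed the groups. Mice 3, 7 and 12 scored 30.5, 11.3 and 8.35 on this PC2. Mice 1, 4, 8 and 11 scored -4.92, 7.99, 4.39 and -2.98. More anxious mouse 6 scored 0.324, above anxious mice 1 and 11, so the order on this PC2 differed from that of the groups. Mouse 3 stood far from every other mouse of the comparison, whereas mouse 12 (less anxious) and mouse 4 (anxious) had close scores. On PC1, which entered the fit as a covariate, the scores were 27.4, -18.8 and 9.24 in the less anxious mice and 10.0, -9.55, -26.5 and 14.4 in the anxious mice, so both groups spanned it. Library totals were 36169009, 40120236 and 37055198 estimated counts in mice 3, 7 and 12. They were 35976977, 38049229, 36434252 and 31745630 in mice 1, 4, 8 and 11. Mitochondrially encoded mRNA took 9.83% to 14.7% of these totals. No 2 of the 7 libraries matched within sampling noise (mean chi-square per gene of at least 30.3 over 21 pairs). The slope of log2 CPM on transcript GC content differed between libraries. Per 10 points of GC it was -0.156, 0.0934 and -0.0643 in mice 3, 7 and 12. In mice 1, 4, 8 and 11 it was -0.044, 0.0634, 0.115 and -0.0075. Across genes, GC content and fitted log2 fold change had a Pearson r of 0.0813.

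The behavior of the anxious and less anxious mice overlapped on every measure. Open arm time, as a percentage of the time on open and closed arms together, was 17.5%, 24.5% and 24.6% in mice 3, 7 and 12 and 6.73%, 16.8%, 14.7% and 20.1% in mice 1, 4, 8 and 11. Only mouse 11 of the anxious mice lay above the lowest less anxious mouse. The means were 22.2% ± 4.09 (SD, n = 3) and 14.6% ± 5.68 (SD, n = 4), with an exact permutation p of 0.114. Total entries were 29, 31 and 42 in the less anxious mice and 15, 24, 30 and 28 in the anxious mice, with the same exact permutation p of 0.114.

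The LD and SIT measures separated the groups less. The percentage of time in the light was 33.5%, 25.1% and 25.7% in mice 3, 7 and 12 and 32.6%, 22.7%, 18.1% and 21.3% in mice 1, 4, 8 and 11 (exact permutation p = 0.286). Mouse 1 thus combined the least time on the open arms with nearly as much time in the light as mouse 3. The percentage of distance traveled in the light had means of 33.3% and 29.5% (exact permutation p = 0.457). The SIT ratio of box to zone time, a measure of close against distant contact with a stranger mouse, had exact permutation p-values of 0.8, 0.857 and 0.743 at 3, 5 and 10 min, and mouse 3 had the highest ratio of the 7 mice at each time. All 7 tests were two-sided, the smallest p that 3 against 4 mice allow is 0.0571 (0.1 at 3 min, where mouse 4 has no value), and the Benjamini-Hochberg adjusted p over the 7 measures was 0.4 at the lowest.

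**Figure D1:**
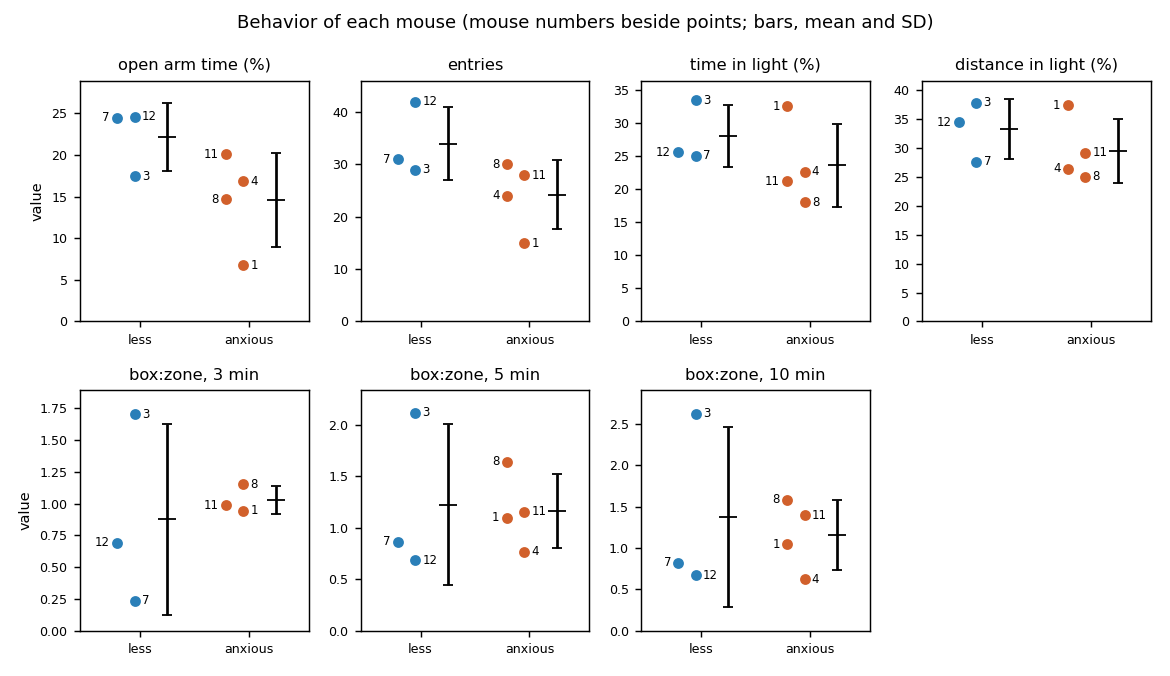
Behavior measures of the 3 less anxious (blue) and 4 anxious (orange) mice; each point is a mouse with its number, the black bar is the mean with its SD, and the vertical axis is a percentage, a number of entries or a ratio as each panel title says. The groups overlap in every panel, and mouse 3 has the highest box:zone ratio at all 3 times.

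Across all genes, the first step of the anxiety order was small against the spread between mice. With Benjamini-Hochberg adjustment, the quasi-likelihood test of edgeR called 1 of 26963 genes higher in anxious mice (0.00371%) and 0 lower (0%). The called gene was Pgam1-ps2, a processed pseudogene of a glycolytic enzyme gene, on GRCm38 chromosome 7 at 27469771 to 27470535. It had 354 reads (10.7 CPM, which is counts scaled to the library total) in mouse 11 and none in the other 6 mice, so the call rested on a single anxious library, and without mouse 11 no gene was called. Its parent gene Pgam1 had between 374 and 479 CPM in all 7 mice (log2 fold change 0.09 ± 0.10 SE).

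At an unadjusted edgeR p under 0.05, 669 genes were higher in anxious mice (2.48% of those tested) and 608 lower (2.25%), 4.74% in all. The next smallest adjusted p was 0.315, and 26959 genes had an adjusted p of 0.98 or more. Of the 15868 genes with a mean of at least 1 CPM over the 7 mice, 471 (2.97%) had all 4 anxious mice above all 3 less anxious mice and 388 (2.45%) had all 4 below. At an unadjusted p under 0.05, 2.78% of those 15868 genes were higher and 2.53% lower. Among them the median absolute log2 fold change was 0.11 and the median SE 0.15. The median log2 fold change over all genes tested was 0.00, and 50.7% of genes lay above 0, so neither direction prevailed.

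**Figure D2:**
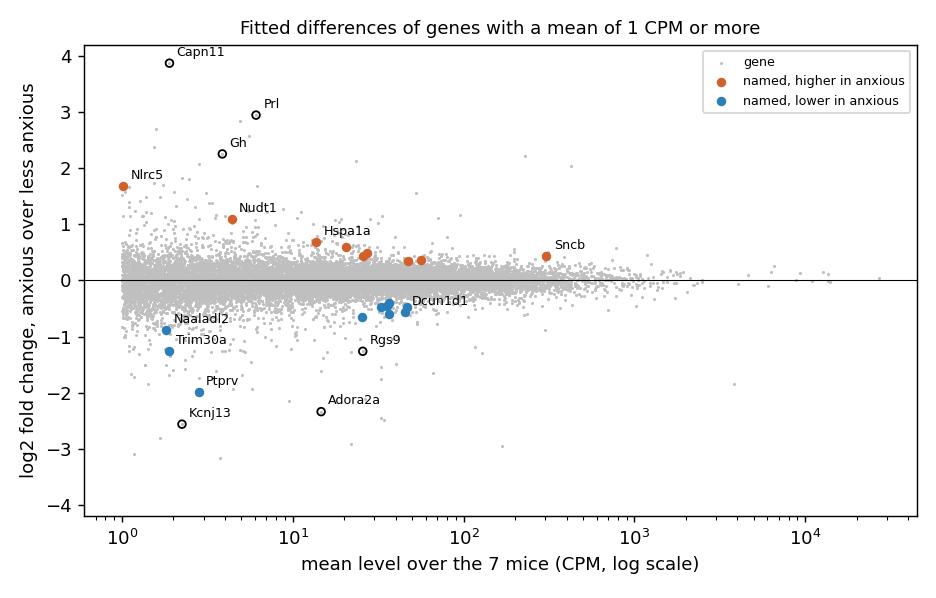
Fitted log2 fold change of anxious over less anxious mice (vertical axis) against the mean level over the 7 mice (horizontal axis, CPM on a log scale) for genes with a mean of at least 1 CPM; 4 genes beyond the drawn range, Pgam1-ps2 among them, are left out. Orange and blue points are the genes chosen because their groups did not overlap, open circles are genes named for other reasons, and most of the 15864 genes drawn lie in a narrow band around 0.

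None of the genes described from here on passed the adjusted threshold in edgeR. Those set out first had the smallest unadjusted p among genes whose CPM values did not overlap between the groups, which is how they were chosen, so their separation is a description and their p-values are not tests of it. The leading gene on the higher side was Hspa1a, which encodes the inducible HSP70 chaperone that refolds damaged proteins after heat, glucocorticoid or other cellular stress. It was at 10.9, 10.3 and 9.44 CPM in mice 3, 7 and 12 and at 14.3, 18.7, 15.8 and 16.5 CPM in mice 1, 4, 8 and 11. Every anxious mouse lay above every less anxious mouse, and the spread within the less anxious mice was narrow (10.2 ± 0.734 CPM, SD, n = 3, against 16.3 ± 1.83, n = 4). The fitted log2 fold change was 0.69 ± 0.14 (SE), with an unadjusted p of 0.000263 and an adjusted p of 0.987 in edgeR. DESeq2's Wald test of the same model gave an adjusted p of 0.0161, the only one of 20 alternatives under 0.05 (range 0.0161 to 1).

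Hspa1a has a near-identical neighbor, Hspa1b, and reads of the pair can be divided between them only where they differ. Hspa1b was at 11, 12.3 and 8.31 CPM in mice 3, 7 and 12 and at 9.86, 22.3, 16.7 and 16.9 CPM in mice 1, 4, 8 and 11. Mouse 1, at 9.86 CPM, lay among the less anxious mice, so for this copy the groups overlapped (log2 fold change 0.57 ± 0.24 SE, unadjusted p = 0.0339 in edgeR). The 250 bases before the RefSeq start of each gene, shown to make the likeness of the copies visible, were equal at 247 positions. Both windows lie on the minus strand of GRCm38.p6, at chr17:34972157-34972406 for Hspa1a and chr17:34959239-34959488 for Hspa1b, and are written 5′ to 3′ with the heat shock element half-site pair in capitals.
Hspa1a: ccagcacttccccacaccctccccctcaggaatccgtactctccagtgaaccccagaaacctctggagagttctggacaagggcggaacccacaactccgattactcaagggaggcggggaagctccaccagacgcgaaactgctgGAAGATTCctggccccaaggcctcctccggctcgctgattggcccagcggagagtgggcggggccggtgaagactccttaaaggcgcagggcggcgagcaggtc
Hspa1b: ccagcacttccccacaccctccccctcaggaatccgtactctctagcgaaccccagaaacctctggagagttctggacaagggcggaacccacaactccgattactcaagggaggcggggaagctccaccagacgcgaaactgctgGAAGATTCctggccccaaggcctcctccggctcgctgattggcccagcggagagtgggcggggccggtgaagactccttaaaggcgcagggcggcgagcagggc
The motif was searched as GAANNTTC or TTCNNGAA, each of which reads the same on the other strand, and each window held it at 104 bases before the start. Of 32851 such RefSeq windows, 12.8% held a match, and a match is a description of the letters and not a bound site.

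The other heat shock genes lay close to 0. Of the 20 heat shock chaperones, only Hspa1a and Hspa1b had an unadjusted p under 0.05, both higher, and the median log2 fold change of the list was 0.06. Hsph1, an HSP110 co-chaperone, also had no overlap (272 to 292 CPM against 294 to 331 CPM), at a log2 fold change of only 0.09 ± 0.09 (SE). Hspa8, the constitutive HSP70, was at 0.07 ± 0.10, Hsp90aa1 at 0.05 ± 0.10, and Dnajb1, an inducible HSP40 co-chaperone, at 0.16 ± 0.13 on the log2 scale.

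Gadd45gip1, a mitochondrial ribosome component that also binds GADD45 proteins, had a narrow range in the less anxious mice. It was at 21.5, 21.8 and 20.8 CPM in mice 3, 7 and 12 and at 27.5, 30.9, 28.8 and 28.0 CPM in mice 1, 4, 8 and 11 (log2 fold change 0.43 ± 0.10 SE). Cited2, a transcriptional co-regulator that competes with hypoxia-inducible factor for CBP and p300, was at 21.8, 21.2 and 23.7 CPM in the less anxious mice and 28.2, 31.8, 30.7 and 32.5 CPM in the anxious mice (0.49 ± 0.13 SE). For both genes the gap between the groups was wider than the range within either group.

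Sncb encodes beta-synuclein, a presynaptic protein abundant in neurons. It was at 284, 256 and 237 CPM in mice 3, 7 and 12 and at 374, 342, 341 and 304 CPM in mice 1, 4, 8 and 11, with a log2 fold change of 0.43 ± 0.11 (SE). Here the groups came close, at 284 CPM in mouse 3 and 304 CPM in mouse 11. Atat1, the tubulin acetyltransferase, had 41.8 to 53.2 CPM in less anxious and 58.7 to 68.3 CPM in anxious mice.

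Zfp940, a zinc finger gene, was at 13.2, 17.1 and 15.3 CPM in the less anxious and 22.8, 25.5, 28.2 and 20.5 CPM in the anxious mice (log2 fold change 0.59 ± 0.13 SE, unadjusted p = 0.000549 in edgeR). Nudt1, which clears oxidized purine nucleotides, ran from 1.03 to 4.27 CPM and from 4.95 to 6.54 CPM. Nlrc5, a transactivator of MHC class I genes, ran from 0.334 to 0.547 CPM and from 0.604 to 2.51 CPM, with mouse 11 highest. Its mean over the 7 mice (1.015 CPM) met the floor of 1 CPM only through the anxious mice. The group means were 0.444 CPM in less anxious and 1.44 CPM in anxious mice, so the filter favored its place among the higher genes. Of the 21 interferon response and MHC class I genes, 0 were higher and 1 (Trim30a) was lower at an unadjusted p under 0.05, and the median log2 fold change was -0.08.

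Trim30a, an interferon-inducible TRIM protein, was the leading gene on the lower side. It was at 4.42, 1.76 and 2.61 CPM in mice 3, 7 and 12 and at 0.891, 1.37, 0.736 and 1.36 CPM in mice 1, 4, 8 and 11. Mouse 3 was highest, and the nearest values, 1.76 and 1.37 CPM, were close (log2 fold change -1.25 ± 0.29 SE, unadjusted p = 0.00081 in edgeR). Dcun1d1, a factor for cullin neddylation, was at 56.8, 55.6 and 53.6 CPM in the less anxious mice and at 33.5, 37.2, 37.0 and 42.1 CPM in the anxious mice (-0.56 ± 0.14 SE). The gap between its groups was wider than the range within either group.

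Slc7a11, the cystine-glutamate exchanger of astrocytes, was at 45.2, 41.2 and 40.7 CPM in mice 3, 7 and 12 and at 37.2, 26.9, 25.2 and 31.9 CPM in mice 1, 4, 8 and 11 (log2 fold change -0.45 ± 0.11 SE). Srebf1, the transcription factor of fatty acid synthesis, ran from 49.0 to 66.1 CPM and from 33.3 to 45.4 CPM (-0.48 ± 0.13). The cholesterol synthesis genes beside it gave 0 of 22 members at an unadjusted p under 0.05 in either direction, with 16 below 0 and a median of -0.14. Narf (36.4 to 44.1 CPM against 24.6 to 33.4 CPM), Carmil1, a regulator of actin capping (27.4 to 41.6 against 15.5 to 21.9 CPM), Snx25, a sorting nexin (37.8 to 54.5 against 28.2 to 33.4 CPM), Naaladl2 (1.78 to 2.91 against 1.06 to 1.70 CPM) and Ptprv, a phosphatase gene (2.67 to 8.91 against 0.394 to 2.18 CPM), also had groups that did not overlap.

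**Figure D3:**
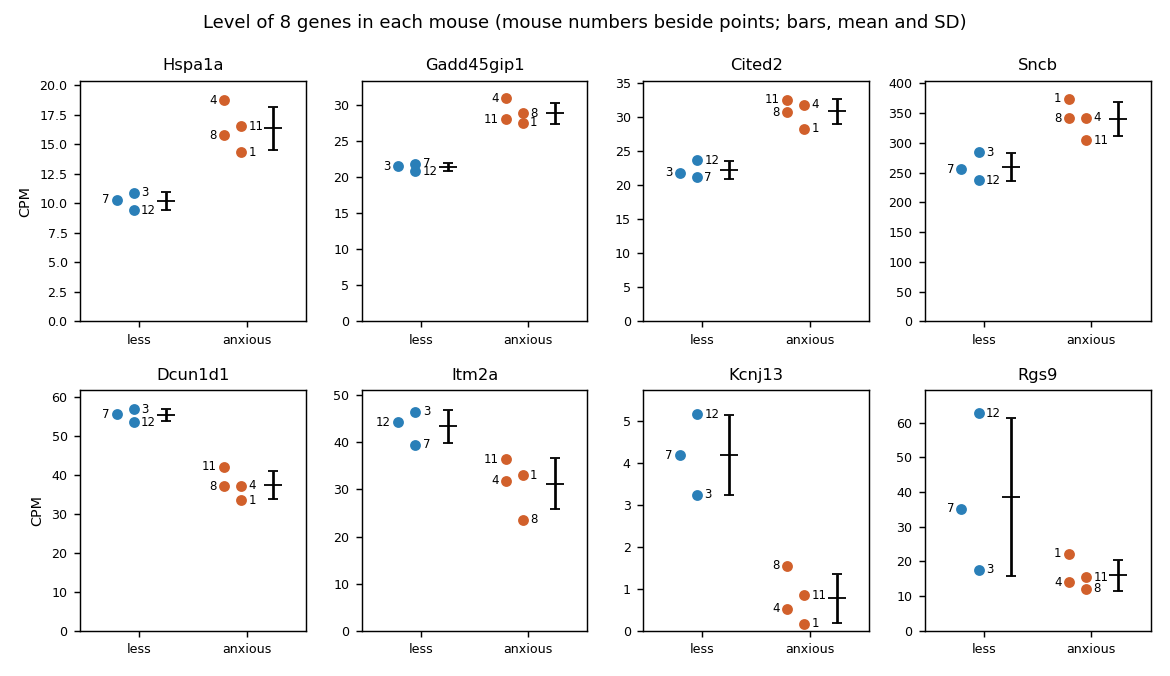
Level of 8 genes (CPM, vertical axis from 0) in the 3 less anxious (blue) and 4 anxious (orange) mice, with the mouse number beside each point and the mean and SD as a black bar. Hspa1a, Gadd45gip1, Cited2, Sncb, Dcun1d1, Itm2a and Kcnj13 have groups that do not overlap, while Rgs9 is high only in mice 7 and 12 and is lower in mouse 3 (17.6 CPM) than in anxious mouse 1 (22.2 CPM).

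The lists of cell type and pathway genes were read as counts beside the background of 2.48% higher and 2.25% lower at an unadjusted p under 0.05. In bulk tissue, fewer cells of a type and less RNA per cell cannot be told apart. Neuronal genes of the labelled tissue were present in all 7 mice: Slc17a7, the vesicular glutamate transporter of cortex-like neurons, was at 678 to 1108 CPM, Gad1, which makes GABA, at 318 to 407 CPM, and the basolateral amygdala marker Rspo2 at 5.75 to 16.9 CPM.

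The 17 markers of central amygdala and striatal-type neurons had the largest share of members lower at an unadjusted p under 0.05 of any list. In edgeR, 7 of 17 were lower at that threshold (Drd1, Drd2, Adora2a, Rgs9, Isl1, Meis2 and Gpr6) and 0 higher, 16 had a log2 fold change below 0, and the median was -0.89. Yet 0 of the 17 had groups that did not overlap. The sum of the list was 692, 1340 and 1659 CPM in mice 3, 7 and 12 and 1024, 644, 647 and 600 CPM in mice 1, 4, 8 and 11. Mice 7 and 12 were high, mouse 1 was between, and less anxious mouse 3 lay with the 3 other anxious mice.

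Rgs9, which speeds the shut-off of dopamine and opioid receptor signals in striatal neurons, followed that order. It was at 17.6, 35.3 and 62.8 CPM in mice 3, 7 and 12 and at 22.2, 14.0, 12.2 and 15.5 CPM in mice 1, 4, 8 and 11 (log2 fold change -1.26 ± 0.38 SE, unadjusted p = 0.00986 in edgeR). Without mouse 3 its log2 fold change was -1.63 with an adjusted p of 0.0368 in edgeR, the one alternative of 20 that called it (adjusted p 0.0368 to 1 over the alternatives). The D1 dopamine receptor gene Drd1 was at 18.03, 29.5 and 37.7 CPM against 18.9, 13.4, 13.8 and 10.6 CPM, and the adenosine receptor gene Adora2a was at 8.14, 24.4 and 47.6 CPM against 15.3, 1.68, 1.42 and 4.02 CPM. Prkcd, a marker of lateral central amygdala neurons, was the exception at 16.2, 13.5 and 9.80 CPM against 17.5, 23.6, 8.04 and 17.9 CPM (0.40 ± 0.31 SE).

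The count of this list moved with single mice. Without less anxious mouse 3, 12 of 17 members were lower at an unadjusted p under 0.05 and the median was -1.2, and without anxious mouse 1 they were 12 of 17 and -1.17. Without less anxious mouse 12 there were 2 of 17, with a median of -0.54. There were 3 without anxious mouse 8 or 11 or more anxious mouse 10, and 4 without mouse 4, 7 or 9. How much adjacent striatum each dissected block held was not tested.

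The opioid genes overlap with that list. Penk, the enkephalin precursor, was at 194, 465 and 554 CPM in mice 3, 7 and 12 and at 370, 196, 168 and 154 CPM in mice 1, 4, 8 and 11 (log2 fold change -0.89 ± 0.45 SE, unadjusted p = 0.0869 in edgeR). Pdyn, the dynorphin precursor, was at 29.2, 65.2 and 67.8 CPM against 37.2, 23.0, 12.4 and 32.3 CPM (-1.04 ± 0.56). Mouse 3 had less of each than mouse 1. Of the 8 opioid peptide and receptor genes, 6 lay below 0, the median was -0.37, and Pomc alone had an unadjusted p under 0.05, in the other direction.

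**Figure D4:**
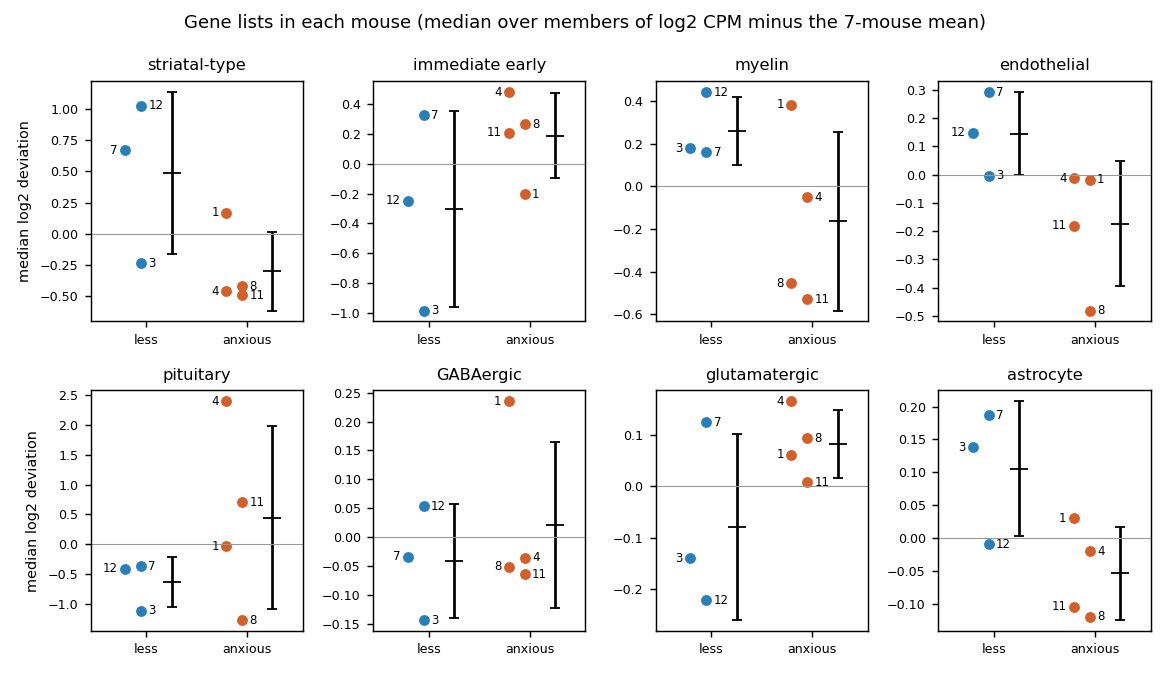
Gene lists in each mouse, as the median over members of log2 CPM minus the mean of the 7 mice (vertical axis, log2); blue, less anxious; orange, anxious; numbers are mice and black bars the mean and SD. The striatal-type list is high in mice 7 and 12 (0.67 and 1.03), the immediate early list is lowest in mouse 3 (-0.98), and the pituitary list is highest in mouse 4 (2.39).

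Immediate early genes, many of which neurons switch on within minutes of firing, lay mostly on the higher side. At an unadjusted p under 0.05 in edgeR, 3 of 22 were higher (Jund, Egr4 and Junb) and 0 lower, 20 had a log2 fold change above 0, and the median was 0.35. Jund, an AP-1 subunit, was at 40.6, 57.6 and 52.4 CPM in mice 3, 7 and 12 and at 57.8, 86.9, 84.2 and 69.8 CPM in mice 1, 4, 8 and 11 (0.53 ± 0.17 SE). Its groups did not overlap, but mouse 1 and mouse 7 were almost level.

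Egr4, a zinc finger factor, was at 5.06, 13.3 and 9.02 CPM in the less anxious mice and at 9.11, 19.7, 17.9 and 16.7 CPM in the anxious mice (0.73 ± 0.26 SE). Junb was at 12.4, 44.6 and 25.2 CPM and at 30.4, 65.0, 53.7 and 46.7 CPM (0.78 ± 0.31 SE). Mouse 3 was the lowest of the 7 mice for both, and the same held for Fos (4.28 CPM in mouse 3 and 19.5 to 36.0 CPM in the others) and Arc (13.5 CPM and 42.9 to 113 CPM). Less anxious mouse 7 had Fos within the anxious range (32.2 CPM) and more Arc (113 CPM) than any anxious mouse. The library of mouse 3 also had the lowest GC slope of the 7 (-0.156). Transcripts of Jund, Egr4 and Junb are 67.15%, 68.16% and 62.58% GC, and the part of GC content in their values was not tested.

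The summed level of the 22 genes was 403, 847 and 538 CPM in mice 3, 7 and 12 and 602, 975, 818 and 744 CPM in mice 1, 4, 8 and 11. Without mouse 3 the median log2 fold change of the list was 0.19, with 1 member higher at an unadjusted p under 0.05, without mouse 11 it was 0.22, also with 1, and without mouse 7 it was 0.57, with 6. Every mouse was killed by rapid decapitation, and the interval since its last test is not given in the sources used here.

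Of the 22 neuropeptide genes of the amygdala, 0 were higher and 0 lower at an unadjusted p under 0.05 in edgeR, and of the 12 GABAergic markers only Dlx2 was higher. Dlx2, a homeobox gene of GABAergic lineages, was at 3.14, 6.05 and 4.93 CPM in mice 3, 7 and 12 and at 7.65, 7.70, 9.18 and 6.67 CPM in mice 1, 4, 8 and 11 (log2 fold change 0.63 ± 0.17 SE, unadjusted p = 0.00247 in edgeR). Sst, the somatostatin gene, was at 228, 275 and 224 CPM and at 327, 412, 406 and 318 CPM, also without overlap (0.51 ± 0.23 SE, unadjusted p = 0.0532 in edgeR). Lhx6, another GABAergic marker, had 20.1 to 21.6 CPM and 22.6 to 31.2 CPM (0.26 ± 0.20 SE, unadjusted p = 0.228 in edgeR).

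The enzyme and transporter genes of GABA itself had no such gap. Gad1 was at -0.00 ± 0.14 and Slc32a1, the vesicular GABA transporter, at -0.34 ± 0.19 on the log2 scale. The list of 12 had 5 members above 0 and 7 below, a median of -0.02, and 0 members lower at an unadjusted p under 0.05. Those below 0 included Dlx6 (-0.49 ± 0.25) and Pvalb (-0.17 ± 0.15).

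Synaptic genes varied in both directions. Of 25 synaptic vesicle release genes, 2 were higher (Syn1 and Dnm1) and 2 lower (Syt2 and Syn3) at an unadjusted p under 0.05, with a median of -0.02. Syn1, which tethers vesicles, was at 410, 430 and 427 CPM in mice 3, 7 and 12 and at 527, 551, 465 and 514 CPM in mice 1, 4, 8 and 11 (log2 fold change 0.31 ± 0.10 SE). Its groups did not overlap, whereas Syt2, a fast calcium sensor, did overlap at 6.92, 10.0 and 14.5 CPM against 7.99, 5.65, 6.49 and 6.07 CPM (-0.70 ± 0.22 SE). Syn1 lies across from Timp1, and Syn3 across from Timp3, on the opposite strand.

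On the postsynaptic side, Nrgn, a calmodulin-binding protein of forebrain dendrites, was at 380, 787 and 580 CPM in mice 3, 7 and 12 and at 727, 1023, 1185 and 762 CPM in mice 1, 4, 8 and 11 (log2 fold change 0.57 ± 0.17 SE). Less anxious mouse 7 lay above anxious mice 1 and 11. Of 25 postsynaptic scaffold and CaM kinase genes, Nrgn and the CaM kinase inhibitor gene Camk2n2 were higher and Dlg2, which encodes PSD-93, lower at an unadjusted p under 0.05. Of 11 AMPA and NMDA receptor subunits only the NMDA subunit gene Grin2d was higher (0.35 ± 0.14), of 15 GABA-A receptor subunits none passed in either direction although 12 lay below 0, and none passed among 10 neurexins, neuroligins and neurexophilins or 8 calcium channel alpha subunits. Among glutamatergic markers, the transcription factor genes Neurod2 (0.48 ± 0.16) and Emx1 (0.52 ± 0.20) were higher at an unadjusted p under 0.05 with overlapping groups.

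Classical stress axis genes gave no difference past the unadjusted threshold. Of 14 corticotropin-releasing factor (CRF) and glucocorticoid genes, 0 had an unadjusted p under 0.05 in edgeR in either direction and the median was -0.04. Crh, the CRF gene, was at 4.28, 5.92 and 5.66 CPM in mice 3, 7 and 12 and at 6.32, 5.31, 4.36 and 4.65 CPM in mice 1, 4, 8 and 11. The receptor gene Crhr1 was at -0.07 ± 0.11, the glucocorticoid receptor gene Nr3c1 at -0.04 ± 0.14 and its target Fkbp5 at -0.09 ± 0.12 on the log2 scale (SE). With these SEs, smaller differences were not detectable.

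Markers of vessels lay mostly on the lower side. Of 15 endothelial markers, 5 were lower (Itm2a, Slco1a4, Abcb1a, Slco1c1 and Adgrl4) and 1 higher (Plvap) at an unadjusted p under 0.05, 14 lay below 0, and the median was -0.27. Itm2a, a membrane protein enriched in brain endothelium, was at 46.4, 39.5 and 44.2 CPM in mice 3, 7 and 12 and at 33.0, 31.9, 23.6 and 36.4 CPM in mice 1, 4, 8 and 11 (log2 fold change -0.41 ± 0.11 SE, unadjusted p = 0.00252 in edgeR). The blood-brain barrier transporter genes Slco1a4, Slco1c1 and Abcb1a likewise had 4 anxious mice below 3 less anxious mice, with log2 fold changes of -0.42 ± 0.13, -0.26 ± 0.11 and -0.52 ± 0.17 (SE). Mouse 8 was the lowest for all 4 of these genes. For the endothelial marker Pecam1 it was instead the highest, at 75.8 CPM against 9.54 to 44.8 CPM in the others. The Pecam1 group means were close, at 31.2 CPM in less anxious and 29.9 CPM in anxious mice. Its fitted log2 fold change of -0.82 ± 0.52 (SE), which unlike the CPM means is adjusted for PC1, still counts among those below 0.

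The count depended on single mice. Without mouse 7, 2 endothelial markers were lower, 0 higher, and the median was -0.12. Without mouse 11 there were 3 lower, and without mouse 4 there were 8. Cldn5, the tight junction gene that defines these vessels, was at 21.8 to 25.8 CPM in less anxious and 14.8 to 23.2 CPM in anxious mice. Plvap, a marker of fenestrated vessels that lack the barrier, was at 6.34, 8.21 and 7.51 CPM against 8.05, 10.7, 12.4 and 9.09 CPM (0.36 ± 0.13 SE). Adgrl4, an endothelial adhesion receptor gene, was at 25.9 CPM in mouse 7 and 9.18 to 13.6 CPM in the other 6 mice.

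All 11 markers of oligodendrocytes and myelin had a log2 fold change below 0, with a median of -0.33. At an unadjusted p under 0.05 in edgeR, 2 of the 11 were lower and 0 higher. Mog, a myelin surface protein gene, was at 23.6, 22.4 and 29.3 CPM in mice 3, 7 and 12 and at 23.5, 16.9, 13.7 and 13.9 CPM in mice 1, 4, 8 and 11 (-0.51 ± 0.23 SE, unadjusted p = 0.0428 in edgeR). Anxious mouse 1 lay above less anxious mouse 7, so its groups overlapped. Summed over the list, anxious mouse 1 (3435 CPM) lay within the range of less anxious mice 3, 7 and 12 (2859, 3239 and 3640 CPM), and mice 4, 8 and 11 were lower (2715, 1995 and 1730 CPM).

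Without mouse 1, 9 of the 11 myelin genes were lower at an unadjusted p under 0.05, without mouse 7, 11 or 12 there were 0, and without mouse 4, 8, 6, 9 or 10 there was 1. Among 13 astrocyte markers, 12 lay below 0 and the glutamate transporter genes Slc1a3 (-0.31 ± 0.12) and Slc1a2 (-0.31 ± 0.13) passed the unadjusted threshold. Of 16 microglia markers 13 lay below 0 and none passed, with a median of -0.12, and 7 oligodendrocyte precursor markers had a median of 0.01 with none passing. Mice 8 and 11 were the lowest for the summed astrocyte markers, at 5594 and 5791 CPM against 6357 to 7718 CPM in the other 5 mice.

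Pituitary hormone genes stood apart in single mice. The prolactin and growth hormone genes Prl and Gh were at 0.639, 0.929 and 1.62 CPM and at 0.556, 1.43 and 1.17 CPM in mice 3, 7 and 12. In mouse 4 they reached 32.1 and 20.03 CPM, while mice 1, 8 and 11 had 2.16, 0.6 and 4.56 CPM of Prl and 1.50, 0.382 and 1.99 CPM of Gh. The summed level of the 8 pituitary genes tested was at most 4.87 CPM in the less anxious mice and 6.47, 58.0, 3.19 and 18.8 CPM in mice 1, 4, 8 and 11. At an unadjusted p under 0.05, 3 of the 8 (Pomc, Cga and Lhb) were higher and 0 lower, against 1 without mouse 3 or 11, 2 without mouse 7 or 12 and 5 without mouse 8.

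Pomc, the precursor of ACTH and beta-endorphin, is a member of this list. It was at 0.889, 1.03 and 0.834 CPM in mice 3, 7 and 12 and at 1.29, 3.57, 0.899 and 7.16 CPM in mice 1, 4, 8 and 11, with a log2 fold change of 1.83 ± 0.58 (SE) and an unadjusted p of 0.0104 in edgeR. Mice 4 and 11, the highest for Pomc, were also the 2 in which the gonadotropin subunit gene Cga exceeded 0.9 CPM and the only 2 with any Fshb. Tshb and the pituitary factor gene Pou1f1 did not share the pattern, at 0.790 to 1.83 CPM and 0.156 to 0.382 CPM over the 7 mice. The part of pituitary tissue in the Pomc values was not tested.

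Kcnj13, an inward rectifier potassium channel gene of choroid plexus and other epithelia, had groups that did not overlap. It was at 3.25, 4.19 and 5.16 CPM in mice 3, 7 and 12 and at 0.172, 0.526, 1.55 and 0.846 CPM in mice 1, 4, 8 and 11, with a log2 fold change of -2.56 ± 0.77 (SE) and an unadjusted p of 0.00909 in edgeR. It lies at chromosome 1, 87386363 to 87394729, across from Gigyf2 on the opposite strand, whose level was 61.3 to 71.4 CPM with overlapping groups. Ttr, which defines choroid plexus, was low in all 7 mice at 1.02 to 5.57 CPM with overlapping groups (log2 fold change 0.37 ± 0.58 SE).

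Of the 16 choroid plexus markers, Kcnj13, Kl and Clic6 were lower and 0 higher at an unadjusted p under 0.05, and the median was -0.13. Kl, the klotho gene, was at 4.83, 6.00 and 8.73 CPM against 4.86, 4.55, 4.96 and 4.62 CPM, and Clic6 at 5.64, 5.97 and 8.76 CPM against 5.78, 4.15, 3.98 and 3.44 CPM, so both were highest in mouse 12. Meningeal fibroblast markers had 0 of 10 members past the unadjusted threshold and a median of -0.37, and their sum was 210 CPM in mouse 1 and 663 to 1220 CPM in the other 6 mice. Of 8 hippocampal markers, the dentate granule cell genes Prox1 (0.40 ± 0.15) and C1ql2 (1.23 ± 0.54) were higher and 0 lower at that threshold. The list as a whole was split, with 4 members above 0, 4 below and a median of 0.11. Wfs1 (-0.41 ± 0.22) and Fibcd1 (-0.40 ± 0.95) were among those below.

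Mitochondrial and ribosomal genes showed little. Of 76 nuclear oxidative phosphorylation subunits, Uqcrq, Cox5b and Cox6b1 were higher and 0 lower at an unadjusted p under 0.05, with 51 above 0 and a median of 0.04. None of 13 mitochondrially encoded mRNAs passed. Of 79 cytosolic ribosomal protein genes tested only Rpl27 was higher, none of 39 proteasome genes passed, and of 18 circadian clock genes only Tef was lower, at 211, 478 and 312 CPM against 246, 242, 266 and 252 CPM.

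**Figure D5:**
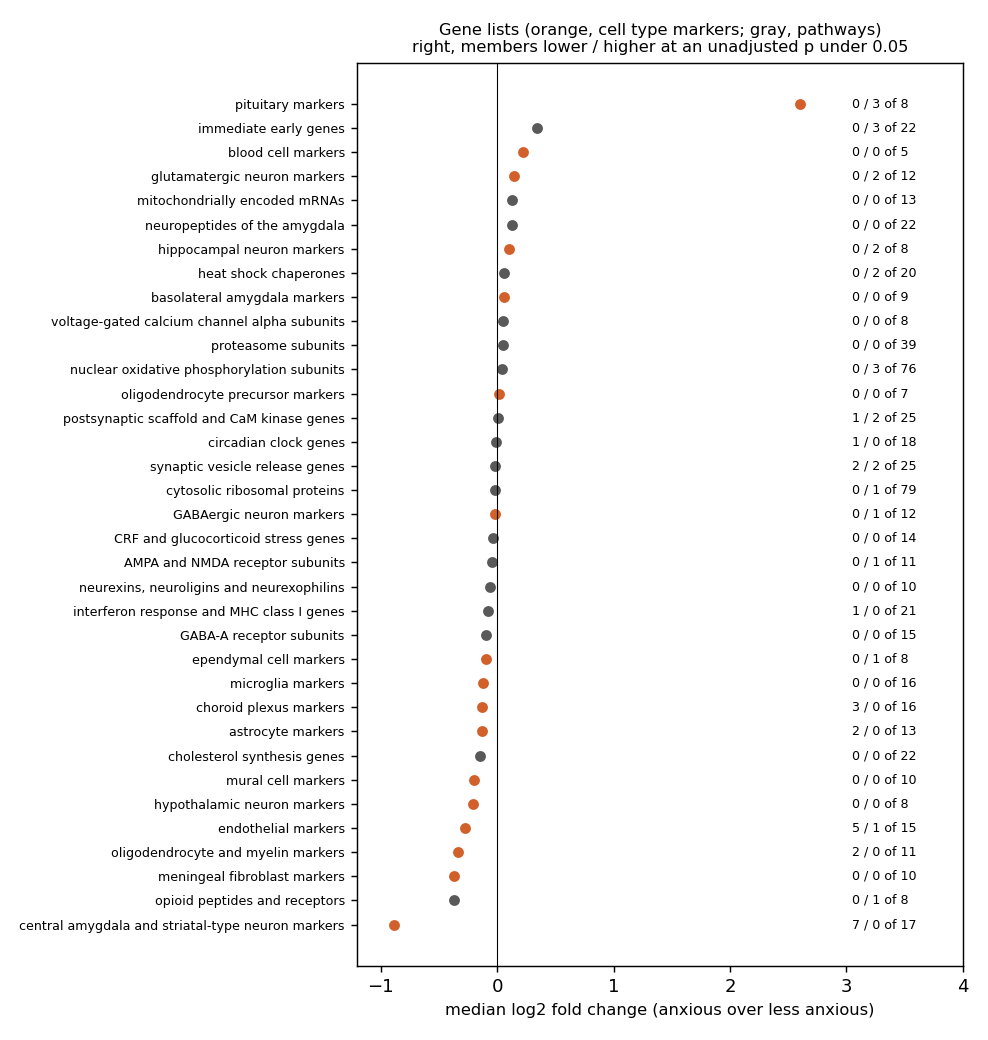
Median log2 fold change of anxious over less anxious mice (horizontal axis) for 35 gene lists (vertical axis), with cell type markers in orange and pathways in gray; numbers at the right are the members lower and higher at an unadjusted p under 0.05 of the members tested. The striatal-type list lies lowest at -0.89, the pituitary list highest at 2.60, and most pathway lists lie within 0.15 of 0.

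Most genes that the study itself named or placed in its pathways were chosen on these same mice over all 3 groups, so their counts are not independent evidence of a direction. The named list also holds Esr1, Apoe, Trim25, Ppp1ca and Fam102a, which the study imputed as nodes of a protein network. Of its 36 pathway genes, 15 were higher and 3 lower at an unadjusted p under 0.05 in edgeR (2.48% and 2.25% of all genes tested), and the median was 0.36. In 9 of the 36 the anxious mice all lay above the less anxious mice, and in 0 all below. The shares among genes with a mean of at least 1 CPM were 2.97% and 2.45%. Of 25 genes it named, 7 were higher and 3 lower. The lists share members, Egr4, Pomc and Scand1 among them, so their counts are not separate. Ywhaz, a 14-3-3 adaptor gene, was at 913, 1080 and 955 CPM in mice 3, 7 and 12 and at 1450, 1130, 1454 and 1352 CPM in mice 1, 4, 8 and 11 (log2 fold change 0.45 ± 0.12 SE). Hmga1, a chromatin architecture gene, ran from 37.9 to 46.0 CPM and from 48.5 to 63.3 CPM, Pfn1, the actin-binding profilin, from 57.4 to 72.3 CPM and from 72.7 to 99.8 CPM, and Scand1 from 3.36 to 3.66 CPM and from 4.86 to 7.66 CPM.

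Capn11, a calpain protease gene, had a large fitted difference carried by 2 mice. It was at 5.33 and 7.28 CPM in anxious mice 4 and 8 and at 0.0278 to 0.201 CPM in the other 5 mice, so anxious mice 1 and 11 lay within the less anxious range (log2 fold change 3.87 ± 1.53 SE). Cltb, clathrin light chain B, was at 102, 128 and 116 CPM against 141, 148, 155 and 120 CPM (0.25 ± 0.10). Ppp1ca and Gnai2, a phosphatase and an inhibitory G protein gene, were at 0.00 ± 0.10 and 0.01 ± 0.18, which says that no difference was detectable and not that there was none. Esr1, the estrogen receptor gene, was at 13.9, 10.8 and 7.82 CPM against 15.8, 10.8, 17.0 and 26.2 CPM (0.71 ± 0.33, unadjusted p = 0.0608 in edgeR), and E2f3, Rps6kb2, Nrxn2, Cacna1a, Atn1, Nxph3, Apoe, Pparg, Trim25 and Fam102a also had an unadjusted p above 0.05.

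Whether a gene moved differently in the step from anxious to more anxious mice was tested in the same fit as the difference of the steps, which share the 4 anxious mice. edgeR called 1 of 26963 genes (0.00371%), again Pgam1-ps2, which had 38.7 CPM in more anxious mouse 9. At an unadjusted p under 0.05 there were 861 genes (3.19%), 436 with a positive difference (1.62%) and 425 with a negative one (1.58%). Trim30a was next among genes with a mean of at least 1 CPM (unadjusted p = 0.000329 in edgeR), with log2 fold changes of -1.25 in the first step and 1.10 in the second. Its more anxious mice, at 1.84 to 2.56 CPM, lay within the less anxious range.

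The other genes named for this contrast, which were chosen for it, also had steps of opposite sign. Ranbp3l was at 5.89, 2.06 and 5.39 CPM in mice 3, 7 and 12, at 1.38, 2.23, 1.42 and 2.51 CPM in mice 1, 4, 8 and 11 and at 4.91 to 12.1 CPM in the more anxious mice. Ift140, a ciliary transport gene, had log2 fold changes of -0.34 and 0.43 in the 2 steps, and Olig3, a neural progenitor factor gene, 1.84 and -1.78. Hspa1a was at a level like that of the anxious mice in the more anxious mice (17.8 ± 2.29 CPM, SD, n = 4; second step 0.12 on the log2 scale), while Dcun1d1 was at 47.3 ± 8.82 CPM there (second step 0.34).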

How the data were processed

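Amygdala mRNA of 12 mice was sequenced as single-end reads of 75 bases, 1 library per mouse, in a single batch. The authors estimated transcript abundance with Salmon, collapsed it to genes and deposited estimated counts for 47729 genes, without normalization. The submitters' processing notes name mm10. Tool versions, the annotation release and whether counting used the strand are not given in the sources used here, so genes that overlap on opposite strands are less certain. Reads that fit several near-identical genes are divided by Salmon, which makes pseudogene counts uncertain. Names, positions and biotypes came from GENCODE M21 (GRCm38).

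Groups came from the sample labels, and replicates are separate mice. edgeR 4.0.16 in R 4.3.3 fitted 3 groups of 11 mice with TMM factors, robust quasi-likelihood and PC1 as a covariate. The 26963 genes tested had 10 or more reads over the 11 mice. The contrasts were anxious against less anxious mice and the difference of the 2 steps, called at a Benjamini-Hochberg adjusted p below 0.05. PC1 came from DESeq2 1.42.0's variance-stabilized counts, blind to the groups. CPM values used TMM factors, and the log2 CPM of list scores a prior count of 2. Fitted log2 fold changes are adjusted for PC1, whereas CPM values, their overlaps and list scores are not. A count of 0 allows up to 3 reads, for counting error only. The total per mouse is given with the results.

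Behavior was tested by exact permutation over all arrangements of the mice, computed with numpy 2.4.6. Genes were named by rule: called genes, then genes with a mean of at least 1 CPM, no overlap of the groups and the smallest unadjusted p (pseudogenes and predicted genes skipped), up to 4 members of each list by unadjusted p, genes the study names, and 5 genes of the difference of the steps. Members of a list named beyond this were chosen after their values were seen. The comparison and the 37 lists were chosen with earlier results of these data known. No set test was run. Alternatives covered the size factors, count filter, test, robust option, covariate, a fit of 7 mice, a GC offset and each mouse left out. The scripts were tested on simulated data. A few genes that the rules chose are not reported here.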

Additional observations from a re-analysis of the deposited data

Results flagged for a closer look

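In the 4 anxious mice, 131 quantities (levels of the named genes, list scores, behavior and library measures) were examined for a mouse far from the other 3 by Dixon's test, and 7 were marked. Chance marks about 1 in 20 groups. Mouse 11 had Pgam1-ps2 at 10.7 CPM where the other 3 had none. Mouse 4 had Prl at 32.1 CPM (others up to 4.56 CPM) and Gh at 20.03 CPM (others up to 1.99 CPM). Mouse 1 had Pparg, a lipid-sensing nuclear receptor gene, at 0.546 CPM where the others had 1.02 to 1.06 CPM. The score of the neurexin, neuroligin and neurexophilin list was -0.16 in mouse 4 and 0.02 to 0.05 in the other 3. Mouse 1 had the highest scores of the GABAergic list (0.24 against -0.06 to -0.04) and of the central amygdala and striatal-type list (0.17 against -0.49 to -0.42), all as a median log2 deviation from the mean of the 7 mice.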

How the results depend on the processing

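No paired analysis was possible because replicate numbers only follow the order of the samples and pair no mice. The count of called genes, 1 as reported, was 0 with edgeR's own expression filter, without the PC1 covariate and in a fit of the 7 mice without covariate, and 15 with DESeq2's Wald test, of which 6 were higher and 9 lower. Apart from Hspa1a and the predicted gene Gm26671, named after its values were seen, DESeq2's calls had reads in 1 or 2 of the 7 mice. For the difference of the 2 steps, also 1 as reported, the count was 0 with that filter and without PC1, and 21 with DESeq2. Leaving out 1 mouse at a time gave 0 to 2 calls for both results. Without anxious mouse 11 there were 0 calls for each, without less anxious mouse 3 there were 2 (Gm26671 and Rgs9) and 0, and without anxious mouse 1 the difference of the steps had 2. Genes at an unadjusted p under 0.05 numbered 1805 without mouse 3 and 1277 with all mice. Genes close to 0 turned sign: Ppp1ca was -0.0014 without a count filter, -0.0199 in the fit of 7 mice with PC1 and -0.0148 with a GC offset, Gnai2 was -0.0268 and -0.0112 in the latter 2, and with a mouse left out their log2 fold changes ran from -0.0276 to 0.0386 and from -0.0768 to 0.0753, those of Fam102a from -0.1066 to 0.0187, of Pparg from -1.10 to 0.20 and of Apoe from -0.2169 to 0.0219. The box:zone difference (anxious minus less anxious) at 5 min was 0.583 on ranks and 0.26 between medians, and at 10 min 0 and 0.3998, and with a mouse left out it ran from -0.169 to 0.564 at 3 min, -0.326 to 0.388 at 5 min and -0.56 to 0.416 at 10 min. The cause of these moves was not tested. Of the 19 genes chosen for not overlapping, every direction held under all 20 alternatives, and Srebf1 missed an unadjusted p of 0.05 in 1 of them. These genes were chosen for their separation in the same mice, which makes a held direction likely. It is therefore no independent support for them. With 3 against 4 mice the median SE was 0.15, and Hspa1a, at 0.69 ± 0.14, still missed the adjusted threshold, so differences of several SEs could go undetected.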
